A study of Mus musculus with 2 samples.

Results

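Lipid droplet and triglyceride storage genes were followed in macrophages of the mouse peritoneal cavity. The genes were listed by name: Fabp4, Plin2, Plin3, Hilpda, Lipe, Pnpla2, Dgat1, Dgat2, Soat1 and Acsl1. A gene was measured where the platform annotation assigned a probe set (the group of short probes that reads a transcript) to that gene and no other. This held for 8 of the 10 genes, with 15 probe sets, out of 18193 named genes on the array. Soat1, which esterifies cholesterol for storage, and Acsl1, which activates long-chain fatty acids, had no such probe set and were not analysed here. All 8 measured genes had a probe set with a signal above the background cutoff on both arrays, as did 9820 of the named genes.

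The resident group was macrophages from untreated C57BL/6J mice, and the elicited group was macrophages from C57BL/6J mice that had received 1 mL of 3% thioglycollate into the peritoneal cavity 3 days earlier. Thioglycollate is a broth that acts as a sterile irritant and draws leukocytes, chiefly monocytes that mature into macrophages, into the cavity. The mice of both groups were 8 weeks old, no genetic change is named for either, and each group was represented by 1 Affymetrix 3' expression array. The protocols give 2 h of adherence before non-adherent cells were washed off, whereas the series description speaks of overnight culture, which leaves the duration of culture unsettled. How many mice were used per array is not stated. There is therefore no replicate, no test between the groups was possible, and every value below describes these 2 arrays. In RNA from a mixed preparation, fewer cells of a type and less RNA per cell cannot be told apart.

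A lipid droplet is a store of triglyceride and cholesterol ester inside a single layer of phospholipid, coated with proteins of the perilipin family. Fatty acids taken up or made by the cell are carried by fatty acid binding proteins, activated to acyl-CoA and esterified in the endoplasmic reticulum, where droplets bud off. They are released again by a cascade of lipases on the droplet surface. Macrophages that take up much lipid fill with such droplets and become foam cells, and droplets in macrophages also supply fatty acids for lipid mediators.

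The droplet coat genes and Hilpda were higher on the elicited array, the lipase gene Lipe was lower, and the others lay within 2-fold. Of the 8 measured genes, 3 were at least 2-fold higher (Hilpda, Plin2 and Plin3), against 8.04% of the 11499 genes above the cutoff on at least 1 array. Lipe was at least 2-fold lower, and 1 gene of 8 is near the 11.8% of those genes that were. Fabp4, Pnpla2, Dgat1 and Dgat2 made up the 4 within 2-fold, where 19.8% of all genes were at least 2-fold apart in either direction. The median log2 ratio of elicited over resident signal was 0.65 over the 8 genes and -0.03 over all genes. The cutoff for background was a signal of 82.2. It is the 95th percentile of 126 probe sets for olfactory receptors and other families not known in macrophages, called the silent families here.

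**Figure D1:**
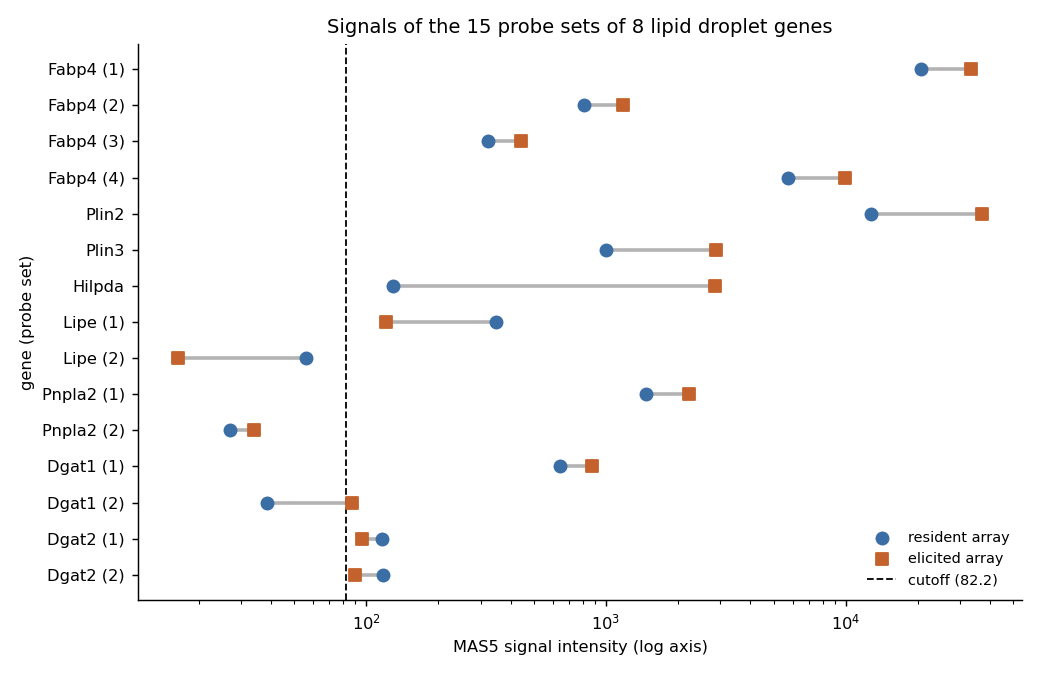
Signal intensity (log axis) of the 15 probe sets of the 8 measured genes on the resident array (circles) and on the elicited array (squares), 1 array each, with the cutoff of 82.2 as a dashed line. Hilpda has the longest distance between its signals (129 and 2842), both Lipe probe sets point towards lower signal on the elicited array, and both Dgat2 probe sets lie close to the cutoff.

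Hilpda encodes a small droplet protein that is induced by hypoxia and by fatty acids and inhibits adipose triglyceride lipase. Its signal was 129 (resident) and 2842 (elicited), a 22.0-fold difference (log2 ratio 4.46). This was the 10th highest ratio among the 9820 genes above the cutoff on both arrays. Hilpda was read by 1 probe set, so the size of its ratio has no second reading. Its resident signal was low. It lay above the 95th percentile that the silent families had in the resident sample alone (92.7) but under their 99th percentile over both arrays (174), and against the latter the gene was at least 16.3-fold higher.

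Plin2, or adipophilin, is the main perilipin of macrophage droplets, and its protein is stabilised by the lipid it coats. Its signal was 12766 (resident) and 37050.4 (elicited), which was 2.90-fold higher (log2 ratio 1.54). Plin2 was thus strongly expressed in both populations. Plin3, a perilipin that moves from the cytosol onto newly formed droplets, had signals of 998 and 2865, a 2.87-fold difference (log2 ratio 1.52). Both perilipins were read by 1 probe set each, and they ranked 289th and 302nd from the top among the 9820 genes. The distance between their log2 ratios was far below the SD of 0.48 between probe sets of the same gene (4465 genes that had more than 1 probe set with usable signal). That SD does not measure variation between arrays or mice, so it cannot show that the perilipins differed alike.

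The promoters of these 3 genes are shown because each gene was at least 2-fold higher, which does not show shared regulation. The sequences are from RefSeq on GRCm38.p6 and run from 250 bases before the transcription start to 50 bases from it on, 5' to 3' on the strand of the gene. The Hilpda window (chr6:29272376-29272675, plus strand) belongs to the downstream of its 2 listed starts, the Plin2 window is chr4:86670010-86670309, minus strand, and the Plin3 window is chr17:56290462-56290761, minus strand. Capitals mark matches, on either strand, to the core of the hypoxia response element (ACGTG) and to a loose AP-1 pattern (TGANTCA, where N is any base).
Hilpda: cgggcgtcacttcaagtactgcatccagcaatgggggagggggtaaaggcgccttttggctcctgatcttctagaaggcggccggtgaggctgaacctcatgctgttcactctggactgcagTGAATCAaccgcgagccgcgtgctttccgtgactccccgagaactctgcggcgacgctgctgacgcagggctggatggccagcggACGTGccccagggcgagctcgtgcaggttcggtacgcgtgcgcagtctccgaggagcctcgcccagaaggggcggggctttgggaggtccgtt
Plin2: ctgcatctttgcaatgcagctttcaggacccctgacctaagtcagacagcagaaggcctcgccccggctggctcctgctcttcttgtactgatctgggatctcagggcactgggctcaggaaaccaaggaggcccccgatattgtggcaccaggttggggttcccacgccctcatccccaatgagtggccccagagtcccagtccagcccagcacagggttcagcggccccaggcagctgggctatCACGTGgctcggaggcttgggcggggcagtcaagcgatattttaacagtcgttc
Plin3: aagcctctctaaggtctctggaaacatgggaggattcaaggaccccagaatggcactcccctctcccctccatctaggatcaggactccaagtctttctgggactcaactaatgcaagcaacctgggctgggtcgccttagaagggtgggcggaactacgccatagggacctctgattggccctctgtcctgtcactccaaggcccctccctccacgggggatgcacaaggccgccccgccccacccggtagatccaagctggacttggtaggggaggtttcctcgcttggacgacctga
ACGTG stood 43 bases before this Hilpda start, and the match to the loose AP-1 pattern, TGAATCA with A at the open base, 128 bases before it. The window of the other Hilpda start held no ACGTG, and there TGAATCA began at base 11 of the transcript. In Plin2 the ACGTG was part of CACGTG, which reads the same on both strands and so matches on each, and which began 4 bases before the start. The Plin3 window held neither. Among the 7 listed genes with a promoter window in the table (Fabp4, Dgat1 and Dgat2 had none), ACGTG was in 1 window each of Hilpda, Plin2 and Lipe, where it was again part of CACGTG and began 155 bases before the start. The motif is common, present in 19.6% of all 32851 windows of this length, and the loose AP-1 pattern in 7.81%. The PU.1 site (GAGGAAGT, in 3.20% of all windows) and the direct repeat bound by PPAR and RXR (in 0.0396%) had no match in the 10 windows of these genes. A match is a description of the sequence and not evidence of binding.

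Lipe encodes hormone-sensitive lipase, which hydrolyses diacylglycerol and cholesterol ester. Its signal was 348 (resident) and 121 (elicited), 2.87-fold lower (log2 ratio -1.52), the 436th lowest ratio of the 9820. Lipe was the only measured member at least 2-fold lower. A further probe set of Lipe had signals of 56.2 and 16.4, both below the cutoff, which point the same way but give no ratio. The elicited signal of 121 was itself below the 99th percentile of the silent families, and with that cutoff Lipe was at least 1.996-fold lower, just short of the threshold.

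Pnpla2, or adipose triglyceride lipase, carries out the first step of triglyceride breakdown and is the enzyme that the Hilpda protein inhibits. Its signal was 1468 (resident) and 2217 (elicited), 1.51-fold higher (log2 ratio 0.60). The direction was thus opposite to that of Lipe, and the size was within 2-fold. A further probe set, at 27.0 and 34.0, was below the cutoff on both arrays.

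Fabp4, the fatty acid binding protein of adipocytes and macrophages, delivers fatty acids within the cell and was read by 4 probe sets. The brightest had signals of 20493 (resident) and 33224 (elicited), 1.62-fold higher (log2 ratio 0.70). The others had signals of 5742 and 9915, of 806 and 1180.0, and of 323 and 441. The 4 log2 ratios were all positive, from 0.45 to 0.79, with an SD of 0.15, so the probe sets gave a narrow range in spite of their different brightness. None was at least 2-fold higher.

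Dgat1 and Dgat2 encode the unrelated acyltransferases that complete triglyceride synthesis. Dgat1 had signals of 640.0 (resident) and 877 (elicited), 1.37-fold higher (log2 ratio 0.46), by a probe set whose suffix marks probes that can match transcripts of more than 1 gene. A further probe set of Dgat1 had 38.7, below the cutoff, and 87.3, just above it. Both Dgat2 probe sets were dim. They had resident signals of 116 and 117 and elicited signals of 96.3 and 89.5, with log2 ratios of -0.27 and -0.39. All 4 values were below the 99th percentile of the silent families, and whether Dgat2 is expressed at all in either population cannot be told from them.

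The ratio on these arrays varied with signal, and the genes are therefore set beside genes of like brightness. All genes above the cutoff on both arrays were put into 10 groups by mean log2 signal. In the brightest group, which holds Plin2 and Fabp4, the median log2 ratio was 0.41 and the middle 50% of genes lay from 0.03 to 0.75. Fabp4, at 0.70, was inside that range, with 70.8% of the group below it, and Plin2, at 1.54, was above it, with 95.6% below it. Plin3 and Pnpla2 fell into the eighth group from the bottom, with a median of 0.08. There 96.7% of genes were below Plin3 and 79.1% below Pnpla2. In the fifth group (median -0.17), 99.8% were below Hilpda and 82.1% below Dgat1. Lipe was in the second group (median -0.17), where 7.13% were below it, and Dgat2 was in the dimmest group (median -0.08), where 36.3% were below it.

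**Figure D2:**
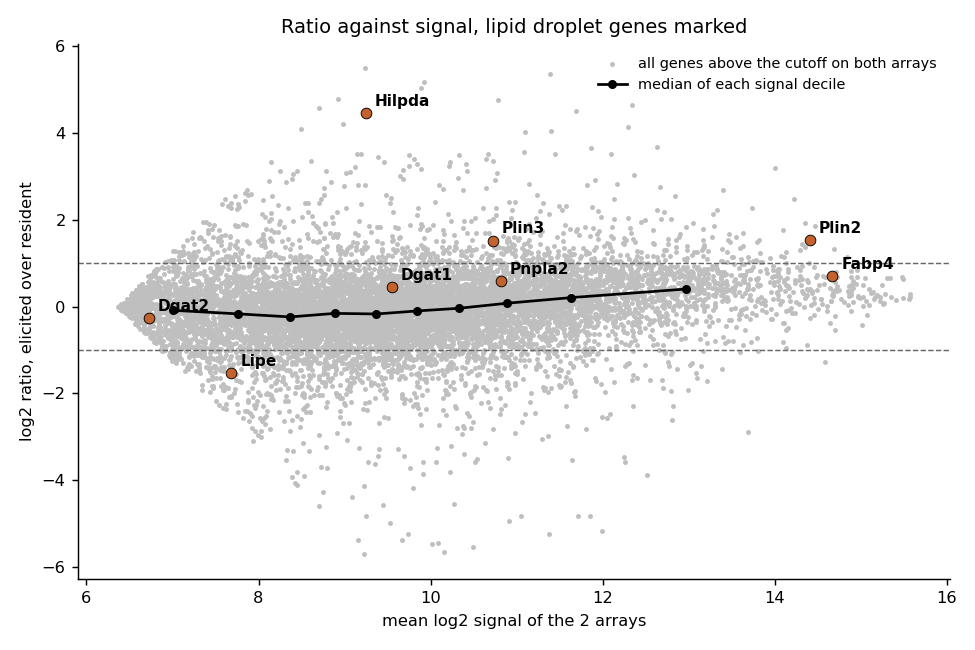
Log2 ratio of elicited over resident signal against the mean log2 signal of the 2 arrays, for the 9820 genes above the cutoff on both arrays (grey points), with the median of each signal decile (black line) and the 8 lipid droplet genes marked; dashed lines show 2-fold. Hilpda (4.46), Plin2 (1.54) and Plin3 (1.52) lie above the upper line, Lipe (-1.52) lies below the lower one, and Fabp4 (0.70) lies between the median (0.41) and the upper quartile (0.75) of the genes of like brightness.

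The scaling of the arrays shifts every ratio. The median log2 ratio of all genes, -0.03 on the deposited scale, was 0.25 when the medians of well-measured probe sets were made equal, 0.16 with quantile normalization, 0.07 with a loess trend removed and -0.37 when scaled on spiked hybridisation controls, whose deposited signals were 1.29-fold higher in the elicited sample. The share of higher genes among all genes at least 2-fold apart was 40.5% as deposited and 65.8%, 58.1%, 50.02% and 18.2% under these scalings in the same order. Relative to the all-gene median, the log2 ratios on the deposited scale were 4.49 for Hilpda, 1.57 for Plin2, 1.55 for Plin3, 0.73 for Fabp4, 0.63 for Pnpla2, 0.49 for Dgat1, -0.24 for Dgat2 and -1.49 for Lipe. Under every scaling tried, Hilpda, Plin2 and Plin3 were at least 2-fold higher and Lipe at least 2-fold lower. Fabp4, Pnpla2 and Dgat1 had positive ratios under every scaling, while Dgat2 turned to 0.26 with quantile normalization and 0.04 with equal medians.

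**Figure D3:**
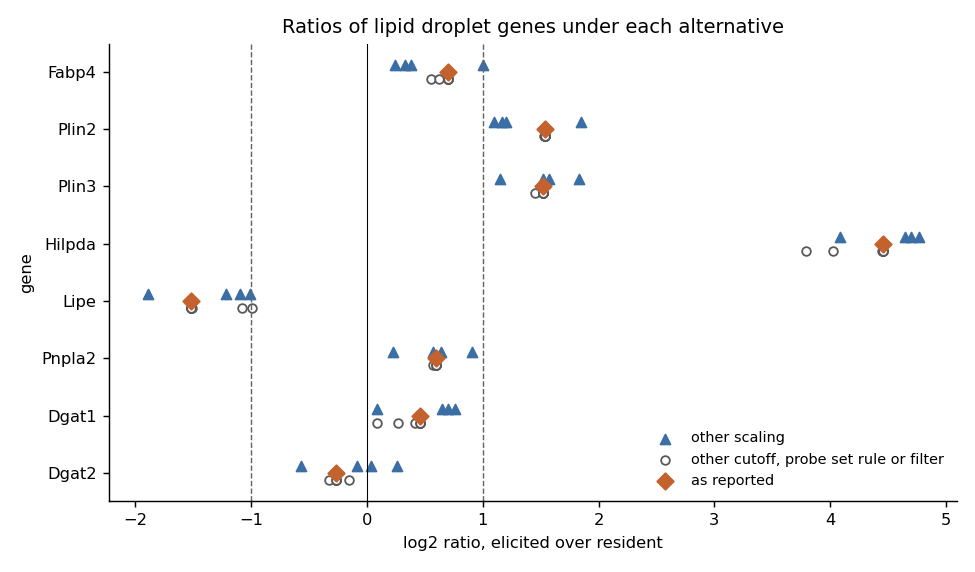
Log2 ratio of elicited over resident signal for each lipid droplet gene as reported (diamonds), under the 4 other scalings (triangles) and under other cutoffs, probe set rules and filters (open circles); dashed lines show 2-fold. The values of Plin2 run from 1.10 to 1.84 and those of Plin3 from 1.15 to 1.83, while the values of Dgat2 fall on both sides of 0.

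Signals of other cell types moved between the arrays. All 9 measured macrophage markers, among them Csf1r and Lyz2, were above the cutoff on both arrays, with summed signals of 173753 (resident) and 183585 (elicited). The sums hide differences between them: Fcgr1 was 2.55-fold higher on the elicited array, Itgam was 2.99-fold lower, Cd14 was 2.73-fold lower, and the other 6 were within 2-fold. These folds are of the brightest probe sets. Csf1r had 3 probe sets from -1.76 to -0.20 in log2 ratio, and Fcgr1 had 2, at 0.60 and 1.35. Fabp4, Lipe and the perilipins are also genes of adipocytes, the cells of the fat pads in the cavity. Of 9 measured adipocyte markers, 7 were below the cutoff on both arrays, including Adipoq (31.8 and 26.5) and Lep (3.84 and 7.25), and the list summed to 413 and 512. The resistin gene Retn (147 and 34.8) passed the cutoff on the resident array, the glucose transporter gene Slc2a4 (49.5 and 182) on the elicited one. Markers of mesothelium and fibroblasts were above the cutoff for 4 of 14 genes on the resident and 12 of 14 on the elicited array (summed signals 798 and 16753). Among the 8 B cell markers on the array, 6 fell short of their resident signal by 2-fold or more in the elicited sample and none exceeded it by that much (median log2 ratio -4.06). They summed to 24483 and 4926, of which Cd22, 1.80-fold higher, gave 2269 and 4078. The other 7 summed to 22213 and 848, and none of their elicited signals reached the 99th percentile of the silent families. For endothelium, 1 and 2 of 7 measured markers were above the cutoff (summed signals 516 and 1574). Most of the elicited sum was Vwf (76.0 and 1276). Kdr was also higher (61.0 and 145), whereas Pecam1 was lower (246 and 8.59). Neutrophil markers were above the cutoff for 3 of 9 genes on each array (summed signals 12071 and 8437). Of those 3, Csf3r was 2.38-fold lower, Mmp8 2.24-fold lower and S100a8 1.28-fold higher (3663 and 4675). Mast cell and dendritic cell markers were above the cutoff for 5 of 7 each on the resident array and none on the elicited array. T cell markers were above it for 4 and 1 of 6 (summed signals 832 and 267). Eosinophil markers were above it for 2 and 1 of 5, but Siglecf was 3.15-fold higher (322 and 1014) and the list summed to 543 and 1145. The part of these cells in the ratios of the droplet genes was not tested.

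Related lists of the same pathway give the setting of the 8 genes. They held 126 genes in 9 lists, of which 9 had no probe set naming them alone, 25 were below the cutoff on both arrays and 92 were above it on at least 1. Of these 92, 16 were higher by 2-fold or more (17.4%), against 8.04% of the 11499 genes above the cutoff on at least 1 array. Lower by that much were 7 (7.61%, against 11.8% of all genes), and the other 69 lay in between. The count of each list below is to be read beside the same shares of all genes. The median log2 ratio of the 92 genes was 0.20. Some of these calls depended on the scaling: Mettl7a1, Tmem41b, Agpat4, Lipa, Nr1h3, Srebf2 and Slc2a1, all named below, kept their direction but came under 2-fold in at least 1 of the 4 other scalings, Lipa in 3 of them.

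Among other coat and surface proteins, Plin4 (61.7 and 46.1), Plin5 (51.0 and 46.0), Cidea (4.42 and 6.70) and Cidec (8.82 and 27.0) were below the cutoff on both arrays, and Plin1, the perilipin of adipocytes, was not analysed here. Among the perilipin genes that were measured, Plin2 and Plin3 were therefore the ones with signal above the cutoff. Of the 8 list genes above the cutoff, Mettl7a1 was the only one at least 2-fold higher (2.05-fold) and none was lower. The dehydrogenase gene Hsd17b11 was 1.79-fold higher and Spart, listed in the annotation as Spg20, 1.84-fold higher. Ldah, a droplet-associated hydrolase, was 1.20-fold higher, and its sign turned on the hybridisation controls (log2 ratio -0.11).

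Genes of droplet assembly were mostly within 2-fold. Of 8 above the cutoff, 1 was at least 2-fold higher, Tmem41b, a lipid scramblase of the endoplasmic reticulum (2.19-fold, with 6 probe sets from 0.20 to 1.26 in log2 ratio). Pcyt1a, which makes the phosphatidylcholine of the droplet surface, was 1.97-fold higher, with 4 probe sets from 0.54 to 1.52 in log2 ratio. The lipid transport gene Vps13a was 1.92-fold lower (at least 1.81-fold against the 99th percentile of 174), with 3 probe sets from -1.37 to -0.72. Vps13c was at least 1.72-fold lower, but both of its signals were below 174 (142 and 42.9).

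Among 10 other synthesis genes above the cutoff, 2 passed 2-fold upwards and none downwards (median 0.22, but -0.14 on the hybridisation controls). The acyltransferase genes Agpat5 (1098 and 2863, 2.61-fold) and Agpat4 (1441 and 3299, 2.29-fold) were the higher ones. Their further probe sets had log2 ratios of -0.38 for Agpat5 and 0.31 for Agpat4, so neither was 2-fold higher by both of its probe sets. Gpam, which attaches the first fatty acid to glycerol phosphate, and Agpat2, which attaches the next, were each 1.67-fold higher.

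Other lipases and their regulators differed more. Of 8 above the cutoff, 4 were at least 2-fold higher and 1 was lower (median 0.64, from 0.06 to 0.38 under the other scalings). Mgll, which cleaves monoglyceride in the last step of the cascade, had signals of 48.2, below the cutoff, and 565, and was at least 6.87-fold higher (at least 3.24-fold against the 99th percentile of 174). Abhd5, the coactivator of adipose triglyceride lipase, had 905 and 2961 (3.27-fold higher, with both probe sets at 1.29 or above in log2 ratio). Nceh1, a neutral cholesterol ester hydrolase of macrophages, was 2.90-fold higher in its brightest probe set and had 3 probe sets from 1.54 to 2.18. Lipa, the acid lipase of lysosomes, was 2.34-fold higher. Abhd6, a monoglyceride lipase, was 2.94-fold lower (346 and 118), or at least 1.99-fold against 174. G0s2, an inhibitor of adipose triglyceride lipase like Hilpda, was below the cutoff on both arrays (3.69 and 14.0).

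Of 12 other fatty acid activation and binding genes above the cutoff, 1 passed 2-fold upwards and none downwards (median 0.66; 4 were higher by that much with equal medians). This was Slc27a1, a fatty acid transport protein with acyl-CoA synthetase activity, at 322 and 1696 (5.27-fold), with both of its probe sets at 2.39 or above in log2 ratio. The binding protein genes Fabp7 (1.92-fold) and Fabp3 (1.81-fold) and the thioesterase gene Acot7 (1.64-fold) were higher within the threshold. Genes for uptake had no common direction. Of 9 above the cutoff, none was at least 2-fold higher and 3 were lower, the oxidised LDL receptor gene Olr1 (3794 and 209, 18.2-fold), the caveolin gene Cav1 (7952 and 1184, 6.71-fold) and the scavenger receptor gene Msr1 (11271 and 4350.1, 2.59-fold). Lpl, the lipoprotein lipase, was 1.78-fold higher (23853 and 42571), with a further probe set at 1.44 in log2 ratio. The fatty acid translocase gene Cd36 was 1.73-fold higher (20401 and 35337), with its 3 probe sets from 0.79 to 1.52. The count of uptake genes at least 2-fold higher was 2 with equal medians, 2 by the median ratio of the probe sets and 1 by unsuffixed probe sets.

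Regulators of lipid storage were split, with 3 of 15 higher by 2-fold or more, 3 lower by as much and 9 in between. Pparg, the nuclear receptor that drives Plin2 and Fabp4 in many cells, had signals of 85.5 and 2030.2 (23.7-fold). Its resident signal was below the 92.7 of the silent families on that array, so the size of the ratio is uncertain, and against the 99th percentile of 174 the gene was at least 11.6-fold higher. Epas1, which encodes HIF-2 alpha, was 3.00-fold higher and Nr1h3, the oxysterol receptor LXR alpha, 2.04-fold higher. Hif1a was 2.48-fold lower (13212 and 5332), Ppargc1b 3.27-fold and the sterol regulator Srebf2 2.43-fold lower. Srebf2 had 2 probe sets, at -1.28 and -0.72 in log2 ratio, so it was not 2-fold lower by both. By the median ratio of the probe sets, 2 regulators were lower by 2-fold or more.

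Target lists were described for PPAR and for hypoxia. Apart from the lipid droplet genes, among which Plin2 and Fabp4 are also PPAR targets, 8 PPAR target genes were above the cutoff. None was at least 2-fold apart (1 was higher by that much with equal medians), where 19.8% of all genes were. Acadl, a dehydrogenase of fatty acid oxidation, was 1.78-fold higher, the carnitine carrier gene Slc25a20 1.33-fold higher, Ehhadh at least 1.37-fold higher and Txnip 1.33-fold lower. A further, dimmer probe set of Txnip was at -1.01 in log2 ratio, just past 2-fold. Of 14 other hypoxia-inducible genes, all above the cutoff, 4 passed 2-fold upwards and none downwards (median 0.17, but -0.20 on the hybridisation controls). They were Ndrg1 (87.1 and 1483, 17.0-fold, but at least 8.51-fold against the cutoff of 174, since its resident signal is below 92.7), the carbonic anhydrase gene Car9 (117 and 358, 3.07-fold, or at least 2.05-fold against 174), the lactate dehydrogenase gene Ldha (6599 and 19087, 2.89-fold) and the glucose transporter gene Slc2a1 (2.27-fold, with 3 probe sets from 0.92 to 1.19 in log2 ratio). Of the 14 genes, 8 had a positive log2 ratio and 6 a negative one. The count at least 2-fold lower was 1 on the hybridisation controls and 1 by unsuffixed probe sets. It was 2 when signals were not raised to the cutoff.

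**Figure D4:**
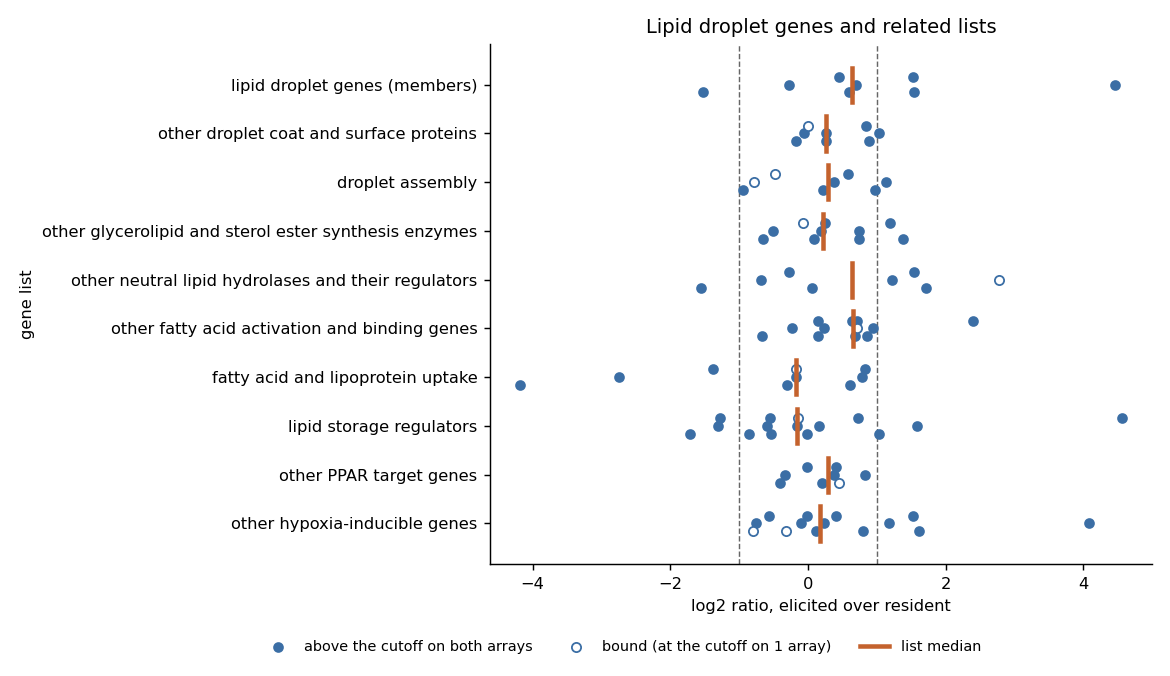
Log2 ratio of elicited over resident signal (x axis) for each gene above the cutoff on at least 1 array, in the 8 lipid droplet genes and the 9 related lists (rows); filled circles are genes above the cutoff on both arrays, open circles are bounds against the cutoff, orange bars are list medians and dashed lines show 2-fold. The medians are 0.65 for the lipid droplet genes, 0.64 for other lipases and their regulators and -0.18 for uptake genes.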

How the data were processed

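RNA was measured with 1 Affymetrix 3' expression array per group, from cRNA made from 100 ng of total RNA, per the labels' protocols. The deposited values are linear signal intensities for 45101 probe sets, which the authors obtained by MAS5 (named in the submitters' processing notes, without version, scaling target or detection calls). The trimmed mean intensity, with 2% cut from either end, was 500.003 (resident) and 500.004 (elicited), and the table was used as deposited.

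Names came from the platform annotation, with symbols brought up to date through gene IDs in RefSeq (GRCm38.p6) for 34754 of 34958 probe sets with 1 symbol. Probe sets with several genes (932) or none (9211) and array controls were left out. Where a gene had several probe sets, the one of highest mean log2 signal stood for it. Signals below the cutoff were raised to it, so a ratio against the cutoff is a bound, written as at least N-fold. Differences are log2 elicited minus resident, read against a 2-fold threshold, and the number of arrays limits their precision.

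The lipid droplet genes, the related lists and the marker lists were chosen with earlier results of these data known. From each related list the text names the 4 genes above the cutoff with the largest absolute log2 ratio. Ranks among all genes stand in place of a likeness of pattern, which a pair of arrays cannot give. Further list genes (Plin4, Plin5, Cidea, Cidec, Lipa, G0s2, Cd36, Nr1h3, Srebf2) and marker genes were named after their values were seen. Other scalings, cutoffs, probe set rules, dim-gene filters and a lower threshold were tried as alternatives. The calculations were tested on simulated data with changes planted only in genes well above the cutoff, so signals near it were not covered. Python 3.11.15, numpy 2.4.6, pandas 2.3.3 and statsmodels 0.14.6 were used.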

Additional observations from a re-analysis of the deposited data

How the results depend on the processing

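Over the 12 alternatives to scaling, cutoff, probe set and filter, the count of lipid droplet genes at least 2-fold higher was 3 in all but equal medians (4, with Fabp4 at a log2 ratio of 1.00) and unsuffixed probe sets (2, since Hilpda has none). At a threshold of 1.5-fold it was 5. The count at least 2-fold lower was 1 except with the cutoff at the 99th percentile, where it was 0 because Lipe became a bound. The median of the genes ran from 0.28 on the hybridisation controls to 0.95 with equal medians. By gene, the log2 ratio ran from 3.79 to 4.76 for Hilpda, from -1.89 to -0.997 for Lipe, from 0.24 to 1.00 for Fabp4, from 0.22 to 0.90 for Pnpla2, from 0.08 to 0.76 for Dgat1 and from -0.57 to 0.26 for Dgat2. Of 342 values of the related lists under alternatives, 290 stayed close to the reported ones (counts within 1.5 times, medians within the probe-set SD) and 52 moved. A median could change sign and still count as close. On the hybridisation controls the median turned negative for coat and surface proteins (0.26 to -0.09), droplet assembly (0.30 to -0.08) and synthesis genes (0.22 to -0.14). It also did so for PPAR targets (0.29 to -0.08) and hypoxia-inducible genes (0.17 to -0.20). A reversal was counted only for a list median of at least 2-fold, and none was that large. No paired analysis was possible because each group has 1 array. With 1 array per group, no replicate could be left out. Signals near the cutoff limit Dgat2, Lipe and the resident signals of Hilpda, Pparg and Ndrg1.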
